A study of Mus musculus with 2 samples.

Results

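Endothelial identity and adhesion genes were examined in mouse heart as a set of 41 genes named by gene symbol for their known place in blood vessel lining. They were found among 21364 genes that carry a RefSeq name on the array. Total RNA from heart was hybridised to 1-colour Agilent arrays, 1 array for a control of C57BL6 background and 1 for the transgenic genotype B6.Cg-Tg (CAG-WRN*K577M), line designation 5025Wcl/Mmmh, on the same background. That line carries WRN-K577M, a form of the RecQ helicase WRN with a substitution in its helicase domain. The CAG promoter that drives it is active in most cell types, so the transgene is not specific to vessels. Both sample titles carry the letters ND. Their meaning, age, sex and any pooling of hearts are not given in the sources used here. Loss of WRN underlies Werner syndrome, in which features of old age come early, and the study asked which signalling goes with cardiac remodelling.

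Endothelial cells line every vessel and the chambers of the heart. Adherens and tight junctions hold them together, ETS and SOX transcription factors keep their identity, and receptors such as TIE2 and S1PR1 keep the layer quiet and tight. At rest the lining makes nitric oxide, thrombomodulin and prostaglandin-handling proteins that keep blood fluid, and when stimulated by cytokines it displays selectins, ICAM-1 and VCAM-1 that capture leukocytes. Laminar shear stress acts in part through the factor KLF2, which is known to raise Nos3 and Thbd and to restrain adhesion molecules.

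Levels are the log2 processed signal over that array's own 75th percentile, and ratios are log2 differences with the control's level subtracted from that of the WRN-K577M heart. A probe counts as measured when the scanner software placed it well above background on both arrays, and the brightest such probe stands for its gene. With 1 array per group there is no replicate check and no p-value, and differences between genotypes cannot be told apart from other differences between the 2 samples. The software's own error of a member's log2 ratio ran from 0.20 to 0.43, and at most 0.21 for 38 of the 41 members. The log2 ratio of probes printed at 10 spots varied between spots with a pooled SD of 0.13. Both errors cover measurement within an array only.

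All 41 members were measured on both arrays, against 14000 of the 21364 named genes. The identity markers Pecam1, Cdh5, Tek, Tie1 and Cldn5, and the VEGF receptor genes Kdr (level 3.45 in control, 3.52 in WRN-K577M) and Flt1 (5.02 and 5.03), were well above background in both hearts. Of these markers only Kdr and Flt1 lie outside the set. Members were chosen with earlier results of these data known, so their detection is no independent check of the label. In bulk tissue, fewer endothelial cells and less RNA per cell cannot be told apart.

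More members lay below equality than above it, and none was at least 2-fold higher in the WRN-K577M heart. Of the 41 members 30 had a log2 ratio below 0 (73.2%), where 47.6% of all measured genes did, and the members' median was -0.24 (quartiles -0.53 and 0.011) beside 0.020 over all measured genes (quartiles -0.22 and 0.24). The adhesion genes Icam1 and Vcam1 and the transporter gene Slco2a1 were at least 2-fold lower. That is 3 of 41 members (7.32%), where 3.45% of all measured genes were as much lower, and 0 of 41 were at least 2-fold higher, where 1.94% of all genes were. Just short of 2-fold stood Cldn5 with a ratio of -0.99 and Cd34 with -0.90. At 1.5-fold 10 members were lower and 0 higher, against 9.15% and 6.76% of all measured genes. A further count by the software's error gave 16 members lower by over 2 errors (13.6% of all genes) and 0 higher (11.3% of all genes). Within 1 error of equality lay 14 members. The error was nearly the same for most members (lowest and median both 0.20), so these counts act much like another fold threshold.

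**Figure D1:**
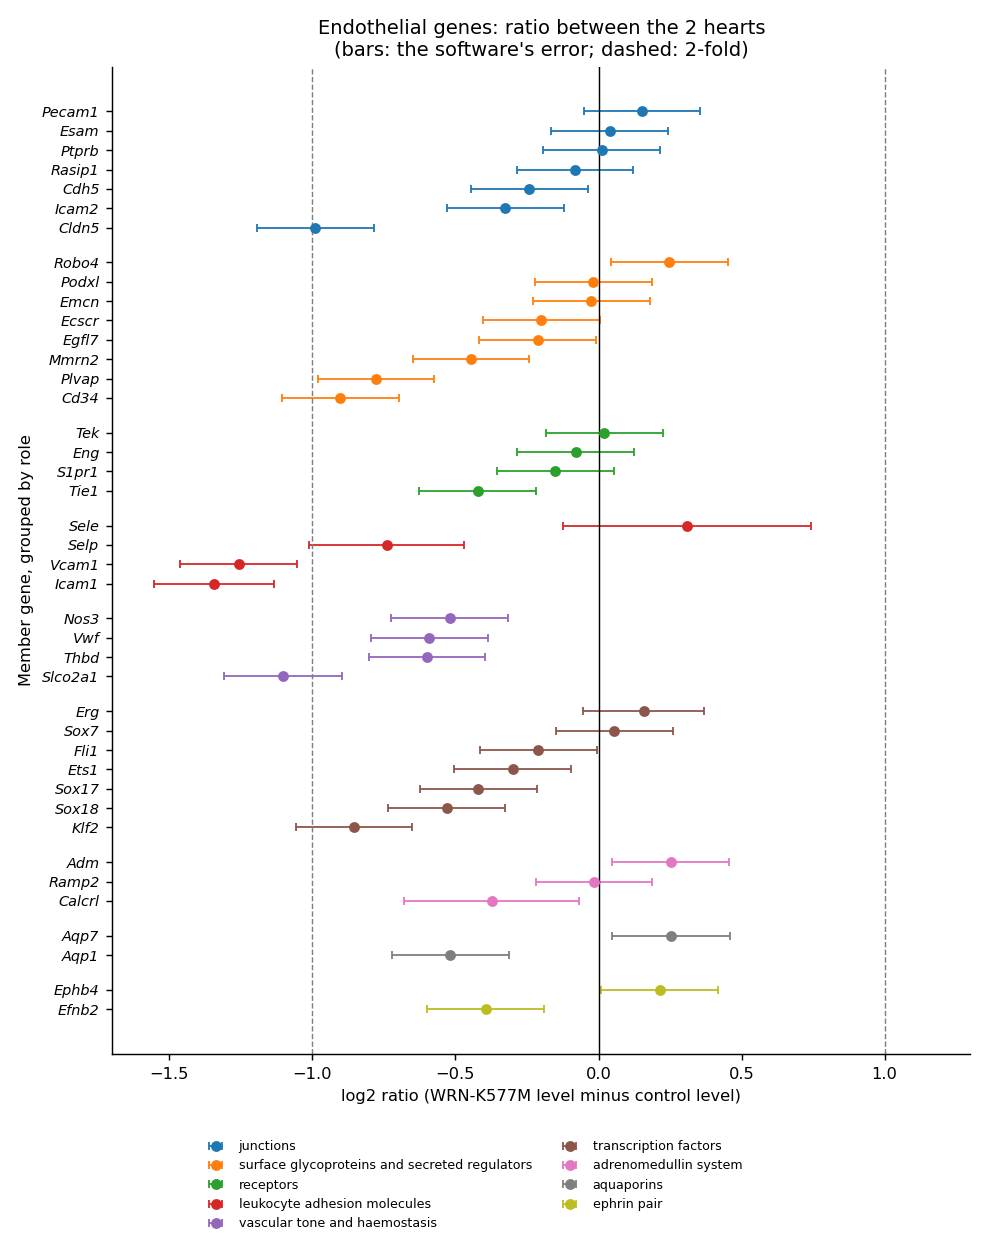
Log2 ratio of each of the 41 members (x axis, WRN-K577M level minus control level) grouped by role, with the software's error as bars and 2-fold as dashed lines. Icam1, Vcam1 and Slco2a1 lie beyond the lower dashed line, and the highest ratio is that of Sele, 0.31.

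Both quartiles and the median of the members lay below those of all genes, while the members' lowest ratio did not stand out. Ratios ran from -1.34 for Icam1 to 0.31 for Sele, within the range of all measured genes from -9.41 to 3.91. The 52 measured genes of a second list of endothelial genes, which holds no member, had a median of -0.024 with 27 below 0 and 25 above, close to all genes.

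**Figure D2:**
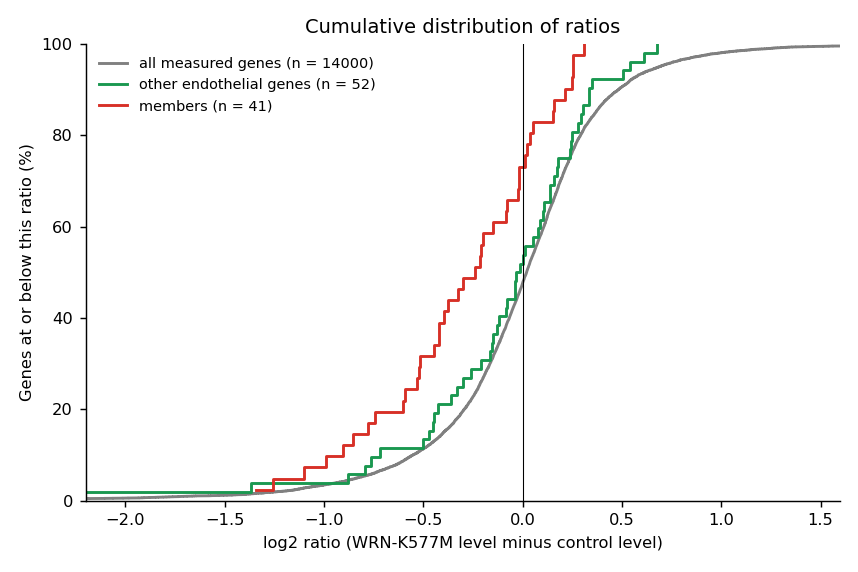
Share of genes (y axis, percent) at or below each log2 ratio (x axis) for all 14000 measured genes, the 52 measured genes of the other endothelial list and the 41 members. The curve of the members crosses a ratio of 0 at 73.2%, that of all genes at 47.6%.

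Several cell types of the sample differed between the 2 hearts, and these values stand beside all results on vessels. Lung and airway epithelial markers had a summed signal, in units of each array's 75th percentile, 13.1-fold lower with WRN-K577M than in the control; 8 of 15 were detected in the control heart alone, among them the surfactant gene Sftpc (at least 1336-fold lower). Macrophage and leukocyte markers summed to 136 and 91.2, with 14 of 15 measured genes below 0 and 7 at least 2-fold lower, led by S100a9 (-4.98) and S100a8 (-4.98). Erythroid genes summed to 852 and 228, with 4 of 5 measured genes at least 2-fold lower. Fibroblast markers had a median of -1.35, with 10 of 12 below 0 and 8 at least 2-fold lower, led by Col3a1 (-2.29). Their summed signal differed less, 496 (control) and 403 (WRN-K577M), as the bright genes Dcn (-0.059) and Gsn (0.092) were near equal. Of 12 measured atrial markers 6 were at least 2-fold lower, and by far more for the sarcomere and calcium pump regulator genes of atrial muscle: Sln was 678-fold lower, Myl7 168-fold and Myl4 139-fold. The list of ventricular cardiomyocyte markers had a median of 0.14 with 0 of 12 at least 2-fold different, but outside it Myh7, the slow myosin heavy chain gene, was 15.1-fold higher with WRN-K577M, the highest ratio of all measured genes (3.91), and the natriuretic peptide gene Nppb 4.79-fold higher. The part of these cell types in the endothelial values was not tested.

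Leukocyte adhesion molecules held the lowest ratios of the set. Icam1, the integrin ligand on which leukocytes come to a firm stop, stood at -0.058 in the control against -1.40 in the WRN-K577M heart, 2.54-fold lower (log2 ratio -1.34, software error 0.21). Its processed signals were 246 and 79.4 over local backgrounds of 46 and 49, so the probe stood clear of background on both arrays. Of all measured genes 1.61% had a ratio as low or lower. Vcam1, the ligand of the integrin VLA-4 on monocytes and lymphocytes, had levels of 2.50 and 1.25, 2.39-fold lower (-1.26, error 0.20). A second Vcam1 probe gave levels of -0.89 and -1.77 and a ratio of -0.88, on the same side but short of 2-fold. Both Icam1 and Vcam1 are also made by cells other than endothelium, including macrophages and stromal cells. Most markers of these cells were lower in the same heart (medians -0.87 for leukocytes and -1.35 for fibroblasts). By summed signal the fibroblast markers were 1.23-fold lower. The part of these cells in the 2 ratios was not tested.

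The selectins, which let leukocytes roll, were the dimmest members of this role. Selp, P-selectin of endothelial and platelet granules, had levels of -2.56 and -3.30 and a ratio of -0.74 (1.67-fold lower, error 0.27). It was read at 8 usable spots, all 8 with a ratio below 0, between -0.94 and -0.45 (SD 0.15). With normexp, a correction whose offset compresses the ratios of dim probes, its ratio was -0.11. Sele, E-selectin, which is made by cytokine-activated endothelium, lay next to the detection limit with processed signals of 11.2 and 11.3, levels of -4.52 and -4.21, and a ratio of 0.31 that is smaller than its error of 0.43. The summed signal of the adhesion molecules was 6.84 (control) and 2.91 (WRN-K577M), the largest fold between the hearts (2.35) among the 9 roles. The largest part of both sums came from Vcam1, with levels of 2.50 and 1.25 by its brightest probe, so the fold mostly restates that gene's.

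Genes of NF-kB signalling and its cytokines are known to induce these adhesion molecules. Of 15 measured genes 9 lay below 0 and 6 above, with a median of -0.065. At least 2-fold lower were 4, where 3.45% of all measured genes were, and 0 were at least 2-fold higher, where 1.94% of all were. Those 4 were the cytokine gene Il6 (-1.62), the adaptor gene Traf1 (-1.40), the chemokine gene Cxcl1 (-1.27) and the NF-kB feedback inhibitor gene Tnfaip3 (-1.17). The subunit gene Rela had levels of 4.45 and 4.81 (ratio 0.36) and the inhibitor gene Nfkbia levels of 4.86 and 4.63 (-0.23). Il1b and Tnf were detected in the control heart alone, which makes them at least 9.86-fold and at least 1.73-fold lower. Leukocyte markers were lower in the same heart, as given above, and their part in these values was not tested.

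The start-proximal sequences of the adhesion genes are shown because cytokine induction of these genes is known to run through NF-kB sites near the start. Windows of 250 bases just upstream of the transcription start were taken from RefSeq (GRCm38.p6), where 21 of the 41 members had at least 1 window and 3 of them several. Vcam1 had no window and is not shown. Capitals mark the letters GGNNNTTCC, a reduced form of the NF-kB motif searched on both strands, whose TTCC end can overlap the letters of an ETS motif. Icam1 lies on the + strand of chr9:21015690-21015939, Selp on the + strand of chr1:164115014-164115263 and Sele on the + strand of chr1:164047984-164048233.
Icam1: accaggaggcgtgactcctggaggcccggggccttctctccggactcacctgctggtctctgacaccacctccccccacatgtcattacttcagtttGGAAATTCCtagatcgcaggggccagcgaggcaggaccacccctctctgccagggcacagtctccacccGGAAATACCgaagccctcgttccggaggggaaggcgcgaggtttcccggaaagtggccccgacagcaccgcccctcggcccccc
Selp: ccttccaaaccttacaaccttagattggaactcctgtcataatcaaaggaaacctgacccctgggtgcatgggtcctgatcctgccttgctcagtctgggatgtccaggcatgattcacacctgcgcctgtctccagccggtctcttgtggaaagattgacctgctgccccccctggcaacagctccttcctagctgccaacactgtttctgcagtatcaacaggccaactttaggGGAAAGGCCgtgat
Sele: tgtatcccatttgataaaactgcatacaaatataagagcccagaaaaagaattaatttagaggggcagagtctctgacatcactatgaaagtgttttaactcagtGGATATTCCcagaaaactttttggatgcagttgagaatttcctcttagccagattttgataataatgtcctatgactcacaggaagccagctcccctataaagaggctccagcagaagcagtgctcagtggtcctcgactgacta

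Icam1 held 2 such matches, the first of them, GGAAATTCC, beginning 153 bases upstream of the start, and Selp and Sele held 1 each. Of the 26 windows of members 26.9% had a match, where 15.7% of all 32851 windows in the table did. The other members with a match were Egfl7 (ratio -0.21), Eng (-0.080) and Aqp7 (0.25), which are not adhesion molecules of this role. A match describes letters and not a bound site.

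The genes of vascular tone and haemostasis were all lower. Slco2a1, the transporter that clears prostaglandins from the lumen, had levels of 0.27 (control) and -0.83 (the WRN-K577M heart), 2.15-fold lower (-1.10, error 0.21), with processed signals of 309 and 118. Under normexp its ratio was -0.83 and that of Icam1 -0.95, which leaves Vcam1 alone past 2-fold. Thbd, thrombomodulin, which turns thrombin into an activator of protein C, had levels of 3.84 and 3.24 (-0.60). Vwf, the large glycoprotein that tethers platelets, had levels of 4.56 and 3.97 (-0.59), and Nos3, the endothelial nitric oxide synthase, levels of 3.97 and 3.45 (-0.52). A second Nos3 probe, read at 8 usable spots, gave levels of 2.01 and 1.57, a ratio of -0.44 with an SD between spots of 0.068. The ratios of Thbd, Vwf and Nos3 thus lay close together, each over 2 software errors from 0 and each near 1.5-fold. Platelet genes, whose cells also hold Vwf and Selp, had a median of -0.36 with 8 of 9 measured genes below 0 and a summed signal of 25.5 and 18.2, led by Pf4 (-0.55) and Itga2b (-0.45). The part of platelets in the values of Vwf and Selp was not tested.

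**Figure D3:**
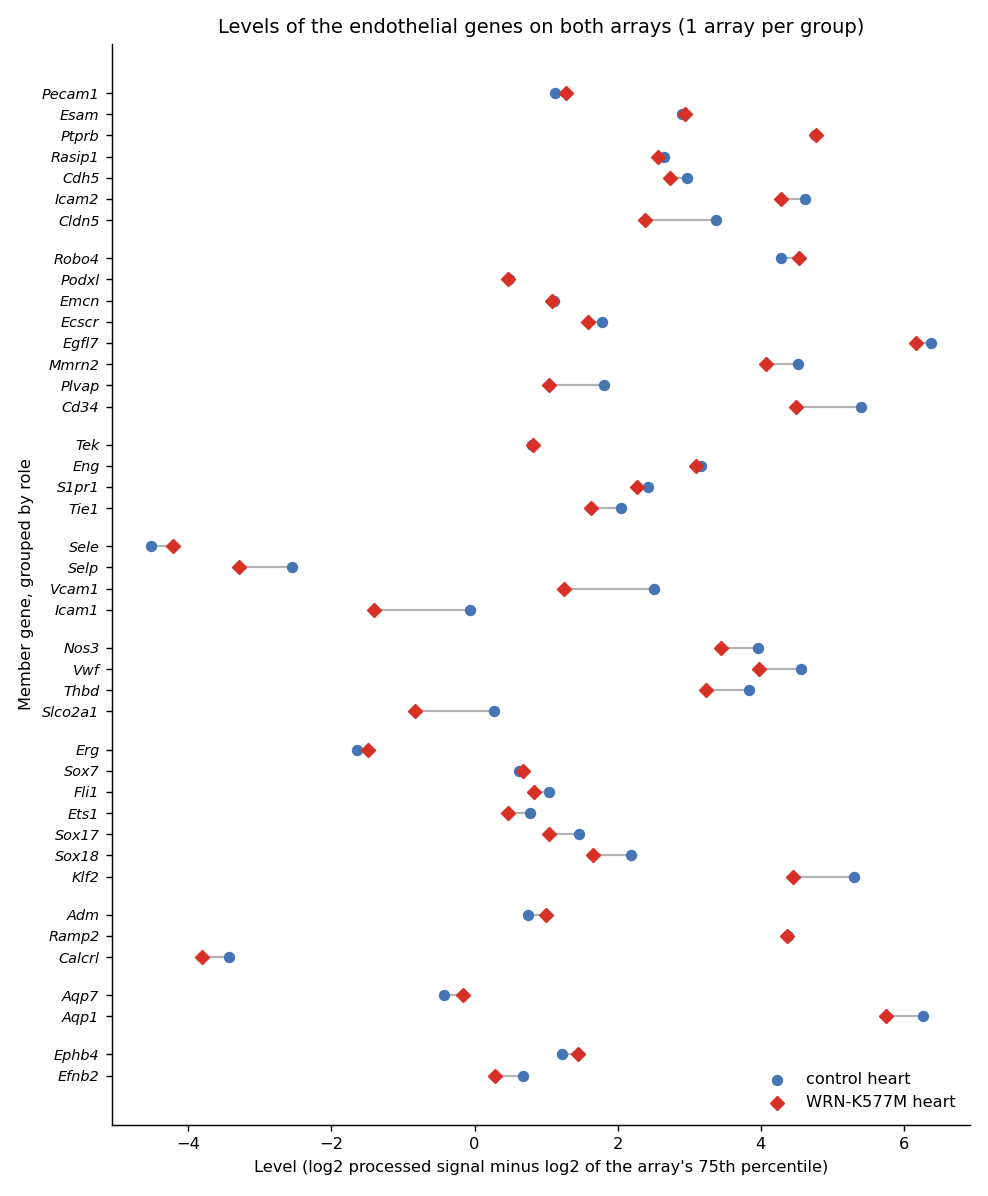
Level of each member (x axis, log2 signal over the array's own 75th percentile) in the control heart (circles) and the WRN-K577M heart (diamonds), grouped by role. Lines between the points are long for Icam1, Vcam1, Slco2a1, Cldn5, Cd34 and Klf2 and hardly visible for Ptprb, Tek, Podxl and Ramp2.

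Among the junction genes a single one stood apart. Cldn5, the main claudin of endothelial tight junctions, had levels of 3.38 (control) and 2.39 (WRN-K577M), 1.99-fold lower (-0.99, error 0.20). It passed 2-fold under 4 of the 9 alternative settings, with ratios from -1.04 to -0.95 over all of them. The adherens and lateral junction genes were near equal: Pecam1, which encodes the homophilic receptor CD31, had levels of 1.13 and 1.28, and its 2 spots gave ratios of 0.11 and 0.20. Cdh5, VE-cadherin, had levels of 2.97 and 2.73 (-0.24) and Esam, an immunoglobulin-type adhesion molecule of tight junctions, levels of 2.91 and 2.95 (0.040). Ptprb, the phosphatase VE-PTP that acts on VE-cadherin and TIE2, had levels of 4.76 and 4.77 by its brightest probe and a ratio of -0.12 by another. Rasip1, a RAP1 effector needed for vessel lumens, had a ratio of -0.082. Icam2, an adhesion molecule that endothelium makes constitutively, had levels of 4.61 and 4.29 (-0.33), unlike the inducible Icam1 with -1.34. The median of the 7 junction genes was -0.082.

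Of the 8 genes of surface glycoproteins and secreted regulators 7 had a ratio below 0, where 47.6% of all measured genes did, and Cd34, Plvap and Mmrn2 were lower by over 2 software errors. Cd34, a sialomucin of capillary endothelium that progenitor and stromal cells also carry, had levels of 5.40 and 4.50 (-0.90), and its second probe gave -0.97. Most fibroblast markers were lower in the same heart, 8 of 12 by at least 2-fold, though their summed signal was only 1.23-fold lower. Their part in the Cd34 ratio was not tested. Plvap, which forms the diaphragms of fenestrae and caveolae, had levels of 1.81 and 1.04 (-0.78), and -0.51 by its second probe. Mmrn2, a matrix protein that binds VEGF-A and CD93, followed with levels of 4.52 and 4.07 (-0.45). The rest differed by less than 2 software errors: Egfl7, a secreted regulator of vessel tubes and host of miR-126, had a ratio of -0.21, Ecscr of -0.20, the sialomucin genes Emcn of -0.025 and Podxl of -0.018. Robo4, an endothelial receptor that stabilises vessels, was the sole one above 0, with levels of 4.28 and 4.53 (0.25).

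The receptor genes were near equal except Tie1. Tek, which encodes the angiopoietin receptor TIE2, had levels of 0.80 and 0.82 (0.021). Tie1, its partner receptor, had levels of 2.05 and 1.63 (-0.42, 1.34-fold lower). Eng, the TGF-beta family co-receptor endoglin, had levels of 3.17 and 3.09 (-0.080), and S1pr1, the receptor for sphingosine-1-phosphate that keeps the barrier closed, levels of 2.42 and 2.27 (-0.15). Outside the set, the ligand genes Angpt1 (levels 2.10 and 1.95) and Angpt2 (-0.74 and -0.41) had ratios of -0.15 and 0.34.

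Transcription factor genes split by family member. Klf2 had levels of 5.30 (control) and 4.44 (WRN-K577M), 1.81-fold lower (-0.85, error 0.20), with processed signals of 10076 and 4565. Klf4, a related shear-responsive factor from the other endothelial list that was picked out after its value was seen, had levels of 3.57 and 2.81 (-0.76). The SOXF genes, which act in arterial and lymphatic fate, gave 0.054 for Sox7, -0.42 for Sox17 and -0.53 for Sox18, and a second Sox17 probe gave -0.21. Of the ETS factors Fli1 had levels of 1.04 and 0.83 (-0.21). Erg and Ets1 had probes on both sides of 0, the brightest given first: 0.16 and -0.12 for Erg, -0.30 and 0.035 for Ets1. The median of the 7 factors was -0.30.

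Windows upstream of Slco2a1 and Cd34, a pair of the lower members that have one, are shown for ETS letters, since ETS factors are known to act at most endothelial promoters. They were chosen as lower members that hold the letters: the windows of Icam1, Cldn5 and Klf2, with ratios of -1.34, -0.99 and -0.85, hold 0 matches. Capitals mark AGGAAG, searched on both strands so that CTTCCT is its other reading. Slco2a1 lies on the + strand of chr9:103008237-103008486 and Cd34 on the + strand of chr1:194938571-194938820, both GRCm38.p6 from RefSeq.
Slco2a1: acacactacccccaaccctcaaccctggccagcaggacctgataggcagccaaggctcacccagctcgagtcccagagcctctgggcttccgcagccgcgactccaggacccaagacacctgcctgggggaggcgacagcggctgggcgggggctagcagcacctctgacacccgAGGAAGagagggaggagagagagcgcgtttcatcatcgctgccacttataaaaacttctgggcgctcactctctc
Cd34: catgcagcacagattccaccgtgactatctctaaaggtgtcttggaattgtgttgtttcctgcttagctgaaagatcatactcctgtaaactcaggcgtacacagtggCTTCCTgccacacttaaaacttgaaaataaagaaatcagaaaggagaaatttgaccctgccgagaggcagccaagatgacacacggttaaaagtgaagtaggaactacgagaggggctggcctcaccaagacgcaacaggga

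The letters began 75 bases upstream of the start in Slco2a1 and 142 bases upstream in Cd34. They were present in 13 of the 21 members that had a window, and in 53.8% of the 26 member windows against 29.5% of all 32851 windows. Members with the letters included near-equal genes such as Emcn and Eng as well as lower ones such as Selp and Cd34. In 2 places within member windows the letters overlapped a match to the NF-kB letters. TATAAA was found in 4 of the 26 member windows (12.4% of all windows) and the AP-1 letters TGANTCA in 2 of 26 (6.75% of all windows).

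The adrenomedullin system, which keeps vessels sealed and relaxed, held genes on both sides of 0. Adm, the peptide's gene, had levels of 0.75 and 1.00 (0.25), and Ramp2, which gives the receptor its adrenomedullin specificity, levels of 4.38 and 4.37 (-0.016). Calcrl, the receptor itself, was dim with levels of -3.44 and -3.81, and its ratio of -0.37 (error 0.31) was 0.14 under normexp.

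The water channel genes lay on opposite sides of 0. Aqp1, the water channel of capillary endothelium and red cells, had levels of 6.27 and 5.75 (-0.52, 1.43-fold lower). Aqp7, an aquaglyceroporin that adipocytes and cardiomyocytes also make, had levels of -0.42 and -0.17 (0.25). Erythroid genes were lower in the same heart, with 4 of 5 at least 2-fold lower. The 9 measured adipocyte markers had a median of -2.49, and 5 were at least 2-fold lower, led by Car3 (-4.20) and Adipoq (-3.31). Plin1 and Ucp1 were detected in the control heart alone, at least 9.06-fold and at least 11.3-fold lower. The 4 above 0 were Pnpla2 (0.88), Fabp4 (0.53), Plin4 (0.53) and Cidea (0.28). The summed signal of the list was 315 (control) and 432 (WRN-K577M), and the largest part of both sums came from these 4 bright genes. The part of these cells in the aquaporin values was not tested. The arteriovenous pair also parted: Efnb2, the ephrin of arterial endothelium, had levels of 0.68 and 0.29 (-0.39) and Ephb4, its venous receptor, levels of 1.23 and 1.44 (0.21), with a second Ephb4 probe at 0.0017.

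Where a member had several measured probes, their ratios were mostly close. Of 9 such members, the ratios of the probes differed by a median of 0.21 and by at most 0.38, the latter for Vcam1, and for 3 (Erg, Ets1 and Ptprb) the probes lay on both sides of 0. The other 32 members rest on 1 measured probe.

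Lists of vessel segments were near equal in the middle with a few outlying genes. Capillary genes had a median of 0.087 with 10 of 15 above 0. The fatty acid binding protein gene Fabp4, which adipocytes also make, had 0.53, Tcf15 -0.56 and Meox2 -0.44. The apelin receptor gene Aplnr was 5.94-fold lower (-2.57), with levels of -1.22 (control) and -3.79 (WRN-K577M), the latter dim. Arterial genes had a median of -0.041 over 15, with Notch1 (-3.22) and the connexin gene Gja5 (-1.31) lower. Hey2 (0.68) and Mecom (0.69) were higher than in the control. Both were dim, with levels of -3.19 and -2.51 for Hey2 (error 0.25) and -3.46 and -2.77 for Mecom (error 0.28). Notch1 was read by 1 measured probe with levels of 2.26 and -0.96, and its other probe was not well above background on either array. Venous genes had a median of -0.16 with 8 of 9 below 0. In the other endothelial list 2 of 52 measured genes were at least 2-fold lower, Notch1 and Vwa1 (-1.37), and 0 as much higher, beside 5.39% of all measured genes at least 2-fold different either way. Tspan12 (-0.88) and Procr, the endothelial protein C receptor gene (-0.79), came next.

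Genes of lung endothelium were measured because lung markers differed so much between the samples. Their median was -0.28 over 11 measured genes, 8 of them below 0. The lung mesenchyme and endothelium factor gene Foxf1 was 5.01-fold lower (-2.32), with levels of -0.75 (control) and -3.07 (WRN-K577M), the latter dim. Prx was 2.72-fold lower (-1.44), while Clic5 (0.79) and Tmem100 (0.69) were higher. Ager, made mainly by lung epithelium, was detected in the control heart alone, at least 14.2-fold lower. The summed signal of the list went the other way from its median, with 57.8 (control) and 78.6 (WRN-K577M). The largest part of both sums came from the list's brightest gene, Clic5, with levels of 4.89 and 5.68. How much of the members' lower levels came with lung vessels was not tested.

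**Figure D4:**
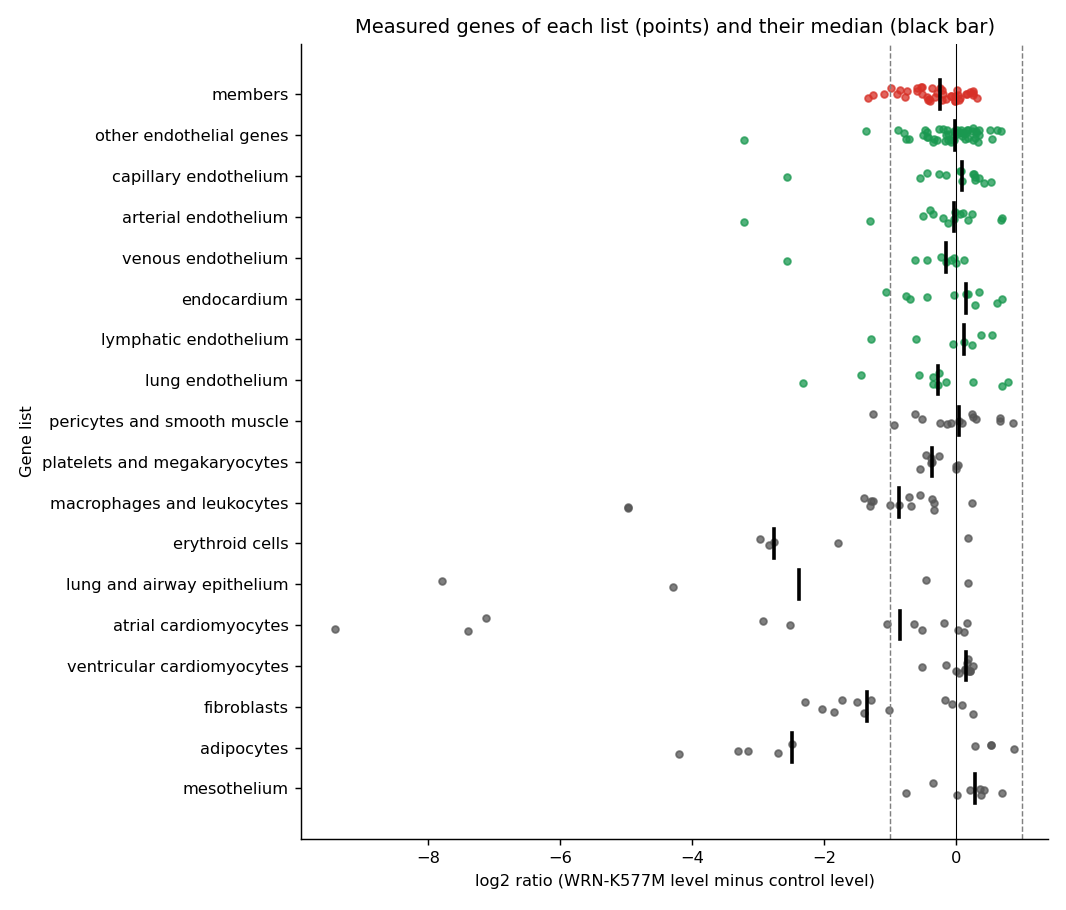
Log2 ratio (x axis) of the measured genes of each list (points) with the list's median (black bar) and 2-fold as dashed lines, members in red, other endothelial lists in green and other cell types in grey. The median of the members is -0.24 (0.020 over all measured genes), and those of the other endothelial lists run from -0.28 to 0.14, with single genes such as Notch1 at -3.22. The medians of erythroid (-2.76), adipocyte (-2.49), lung epithelial (-2.38), fibroblast (-1.35), leukocyte (-0.87) and atrial (-0.85) markers lie further left.

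Of 366 values of single members under the alternative settings, 362 moved by less than the software's error, and the 4 others (Icam1, Slco2a1, Selp and Calcrl) moved by more after normexp. Many of the 362 could not differ gene by gene. Other scalings and the deposited values shifted all members alike, and the dim-probe filters left the ratio of every kept member unchanged. Under 9 alternative settings 36 of the 41 members kept their sign throughout. Those that crossed 0 were Calcrl, Ramp2, Esam, Ptprb and Tek, of which all but Calcrl lay within 0.040 of 0 in the main setting. The median of the members lay 0.23 to 0.36 below that of all genes under every one of these settings. Other scalings and the deposited values shift all genes alike, so under them the gap of 0.26 could not change. Keeping dim probes moved the median of all genes and no member's ratio.

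**Figure D5:**
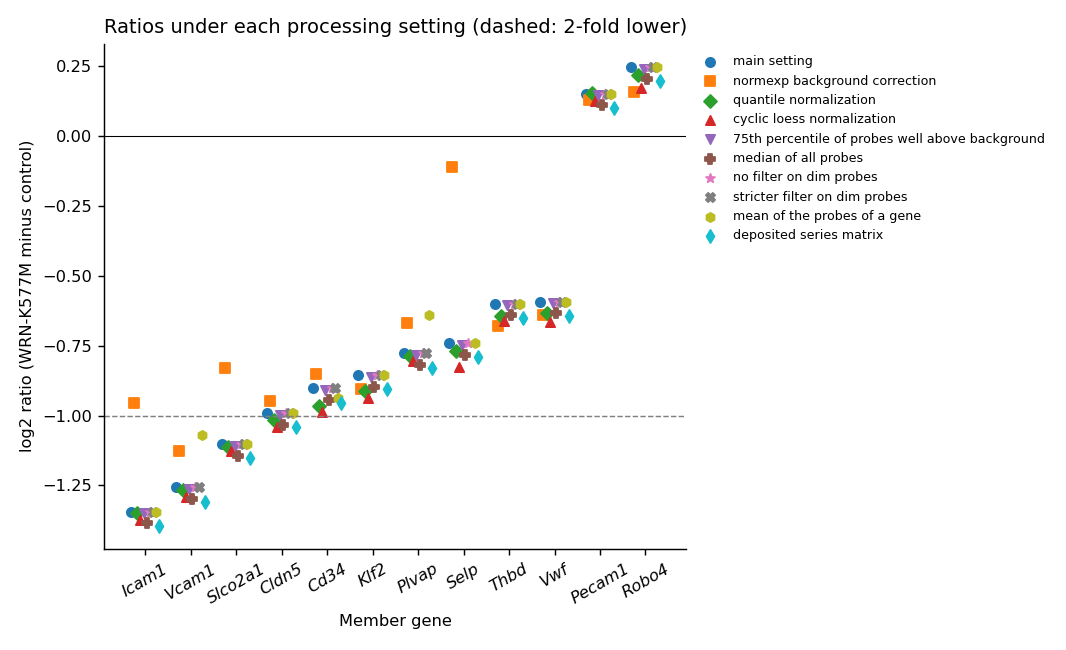
Log2 ratio (y axis) of 12 members (x axis) under the main setting and 9 alternatives, with 2-fold lower as a dashed line. Points of a gene lie close together except after normexp, where Selp has -0.11, Icam1 -0.95 and Slco2a1 -0.83.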

How the data were processed

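The samples, 1 control and 1 WRN-K577M mouse heart, were grouped by the genotype in the labels, each on 1 array. The spot files hold intensity values from Agilent Feature Extraction (11.5.1.1 in the submitters' processing notes), made by the authors: a processed signal, background-subtracted and detrended but not scaled between arrays, and the median spot and background intensity. Other columns hold flags of 0 or 1, per the file headers. In the deposited series matrix each value is the processed signal times 4.12 (control) or 4.86 (WRN-K577M). Its column medians are 79.5 and 79.0, and the sources used here do not give the reason for the factors.

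Of 59305 non-control spots 257 outliers were left out, and no spot was saturated. Each array was scaled to its 75th percentile (256 and 210), and log2 values of spots of a probe were averaged. RefSeq accessions without version named 28324 of 55680 probes through a GRCm38.p6 table; the design is annotated on mm9, so coordinates are given for promoter windows from RefSeq only. A gene takes its brightest probe well above background on both arrays; otherwise a bound was set against the lowest level well above background (-4.73 and -4.42). Members with 1 array per group get no test, and the number of arrays limits precision. Members and lists were chosen with earlier results of these data known. All members are named; from other lists the rule takes up to 4 genes with the largest ratio and 2 with the largest bound, and others were picked after their values were seen. Counting was tested on simulated data. Alternatives were normexp (offset 50), quantile and cyclic loess normalization, other scalings and dim-probe filters, averaging the probes of each gene, the authors' deposited values, and 1.5-fold or 3-fold as threshold. Tools were Python 3.11.15, numpy 2.4.6, pandas 2.3.3, matplotlib 3.10.9, R 4.3.3 and limma 3.58.1.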

Additional observations from a re-analysis of the deposited data

How the results depend on the processing

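The number of members at least 2-fold lower was 3 in the main setting, where 3.45% of all measured genes were. It was 1 after normexp (1.40% of all genes) and 3 or 4 under the other settings (2.55% to 5.05%). At a threshold of 1.5-fold it was 10 (9.15% of all genes). At 3-fold it was 0, and the share of all genes was not counted there. No member was at least 2-fold higher under any setting, where 0.82% to 5.80% of all genes were, and none was higher at 1.5-fold or 3-fold. In the other endothelial list the number at least 2-fold different was 2 (of 52 genes in the main setting), beside 5.39% of all measured genes. It was 3 (of 55 genes) when dim probes were kept, where 5.05% of all genes were lower and 5.80% higher. At 1.5-fold it was 8, where 9.15% of all genes were lower and 6.76% higher, and at 3-fold 1. The median of the members ran from -0.32 with cyclic loess to -0.19 after normexp. Of 366 values of single members under the alternatives, 362 moved by less than the software's error. The 4 others were Icam1, Slco2a1, Selp and Calcrl after normexp. The 362 include settings that shift all members alike or leave their ratios unchanged, so the count is a weak check. The stricter filter on dim probes left out 3 members, Sele, Selp and Calcrl. No paired analysis was possible because each group has 1 array. Low signal over background limits Sele and Calcrl most.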

Other observations

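Cells that wrap or adjoin the vessels differed by gene. Mural cell genes (pericytes and smooth muscle) had a median log2 ratio of 0.042 over 15 measured genes, 8 of them above 0. Their summed signals were 171 (control) and 203 (WRN-K577M). Both sums rest most on the list's brightest genes, Des (levels 5.06 and 5.72) and Acta2. The contractile genes parted: Acta2, smooth muscle actin, had levels of 4.85 and 5.70 (0.85), while the calponin gene Cnn1 had levels of 2.18 and 0.92 (-1.26) and Tagln levels of 4.67 and 3.73 (-0.94). The pericyte proteoglycan gene Cspg4 had a ratio of 0.66.

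Endocardial genes had a median of 0.14 over 11 measured genes, with Adgrg6 (-1.07), Wt1 (-0.77) and Plxnd1 (-0.71) lower and Tmem100 (0.69) higher. Adgrg6 was dim, with levels of -2.62 and -3.69 (error 0.32). Lymphatic genes had a median of 0.12 over 7, with Nts (-1.30) and the hyaluronan receptor gene Lyve1 (-0.61) lower. The VEGF-C receptor gene Flt4 (0.54) was higher, but dim with levels of -3.37 and -2.83 (error 0.26). Lyve1 is also made by some tissue macrophages, whose markers were lower in the same heart. Mesothelial genes had a median of 0.28 over 8, with 6 of them above 0.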
